A study of Mus musculus with 21 samples.

Results

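Ikzf1 and Ikzf3 encode Ikaros and Aiolos, and the genes described here are those whose level in natural killer (NK) cells without both factors was not the sum of what the 2 single deletions did. Of 11736 genes in the deposited table, 10032 had at least 1 RPKM (reads scaled to gene length and to library size) in at least 3 libraries and were tested, and 657 of them, 6.55%, departed from the sum. They were chosen by the contrast DKO minus Ikzf1 KO minus Ikzf3 KO plus Cre only, fitted on log2(RPKM + 0.5) in 15 libraries of cultured mouse splenic NK cells, at an adjusted p below 0.05 (limma, Benjamini-Hochberg). The value of the contrast is called the interaction below. It is positive where DKO cells lay above the sum of the single changes and negative where they lay below it.

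DKO cells lacked both genes and were measured in 3 libraries (S5 to S7). Ikzf1 KO cells (4 libraries, S12 to S15) and Ikzf3 KO cells (4 libraries, S1 to S4) lacked 1 gene each, and Cre only cells (4 libraries, S16 to S19) carried both. All 4 genotypes carried Cre, and the deletions were conditional ones directed to NK cells in mice. The Cre driver is not given in the sources used here, and the mice's ages are not given there either. Every library came from spleen NK cells that were sorted and kept in medium with 50 ng/ml recombinant human IL-15, a cytokine that keeps NK cells alive and dividing. The labels speak of biological replicates without naming animals, so p-values measure the spread between these libraries. The series holds 21 samples, and the 6 that were sorted without culture are not analysed here. The table's headings name the genotype and not the culture. They were taken as cultured cells because the labels give 4 Cre only and 4 Ikzf1 KO samples, and any DKO or Ikzf3 KO sample, in cultured form alone.

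Ikaros and Aiolos are zinc finger transcription factors of 1 family. They bind similar DNA, pair with themselves and with each other, and bring chromatin complexes such as NuRD to genes, where they often repress. Both are known for their part in lymphocyte development. When paralogs share a task, the loss of either may leave it in place until both are gone, and a gene can also move with 1 paralog and return when the other is lost too. NK cells are innate lymphocytes that kill target cells with perforin and granzymes and answer to a set of activating and inhibitory receptors.

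Levels of the deleted genes came first as a check of the labels. Ikzf1 (chr11:11685003-11772926 on mm10) had 38.4, 25.3 and 27.2 RPKM in DKO libraries, 19, 19.9, 18.3 and 19.3 RPKM in Ikzf1 KO libraries, 84.8, 80.7, 87.4 and 72.9 RPKM in Ikzf3 KO libraries and 57.7, 59.3, 61.1 and 69.4 RPKM in Cre only libraries. Ikzf3 (chr11:98464902-98546031) had 23.7, 20.0 and 20.9 RPKM in DKO libraries, 49.7, 46.3, 48 and 49.2 RPKM in Ikzf1 KO libraries, 19.4, 20.2, 15.2 and 16.4 RPKM in Ikzf3 KO libraries and 45, 44.8, 37.7 and 39.6 RPKM in Cre only libraries. Each deleted gene lay lower in every library labelled as lacking it than in every library labelled as carrying it, and none was at 0. The remaining Ikzf1 level was higher in DKO than in Ikzf1 KO cells, by 0.63 on the log2 scale (limma adjusted p 0.0119). The remaining Ikzf3 level differed by 0.27 between DKO and Ikzf3 KO cells, which did not pass (limma adjusted p 0.127). The RPKM values cover whole genes, and which exons were deleted is not given in the sources used here. Neither gene was called in the interaction, which was 0.23 ± 0.19 for Ikzf1 and 0.06 ± 0.17 for Ikzf3 (log2 ± standard error; adjusted p 0.5 and 0.857, limma with Benjamini-Hochberg).

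Some libraries stood apart from others of their genotype, and this touches the results below. The summed RPKM of 10 NK cell markers, most of it Gzma and Gzmb, was 3846 in DKO library S5 and 9017 and 9146 in S6 and S7. It was 24130 to 27370 in Ikzf1 KO libraries. Among Ikzf3 KO libraries it was 6979 and 8633 in S3 and S4 and 16280 and 19860 in S1 and S2. It was 19800 to 25040 in Cre only libraries. The depth recovered from the deposited values lay between 8.613 and 21.25 megareads a library. Markers of B cells, neutrophils and erythroid cells were absent from the table or at most 2.228 RPKM in sum. A list of 5 mast cell and basophil markers, of which 3 were in the table, summed to 52.1 to 81.65 RPKM in DKO and 124.8 to 190.9 RPKM in Ikzf1 KO libraries. It was 102.6 to 182.3 RPKM in Ikzf3 KO and 74.68 to 184.2 RPKM in Cre only libraries. Of the 3, Mcpt8 was called below the sum (-3.37 ± 0.91, limma adjusted p 0.0397), kept in 4 of 15 fits with 1 library left out. Mcpt8 lies at chr14:56082166-56085273, near Ctsg and the granzymes described below. The part of mast cells and basophils was not tested.

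The 657 genes were split into 364 above the sum, 3.63% of those tested, and 293 below it, 2.92%. Sizes ran from 0.504 to 10.3 on the log2 scale, and 174 genes had a size of at least 2. With the 0.5 RPKM added before the logarithm, changes of low genes are understated. On the linear RPKM scale 655 of the 657 departed from additivity in the same direction. For some genes this could not have come out otherwise. Where the linear sum lay below 0 RPKM, as for Ccl5 (-384.6) and Jaml (-13.6), any DKO level lies above it. The genes were then sorted by their group means, which are the values that also gave the call, so the classes are a description. Redundancy, with 132 genes, means a change in DKO of at least 1 on the log2 scale with each single change under 0.5 of it. Opposing, with 21 genes, means single changes of opposite sign and of at least 0.5 each. Buffering, with 491 genes, means that DKO fell short of the sum of the single changes or lay on the other side of Cre only. The 13 genes that went beyond the sum without meeting the first definition are called enhanced.

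**Figure D1:**
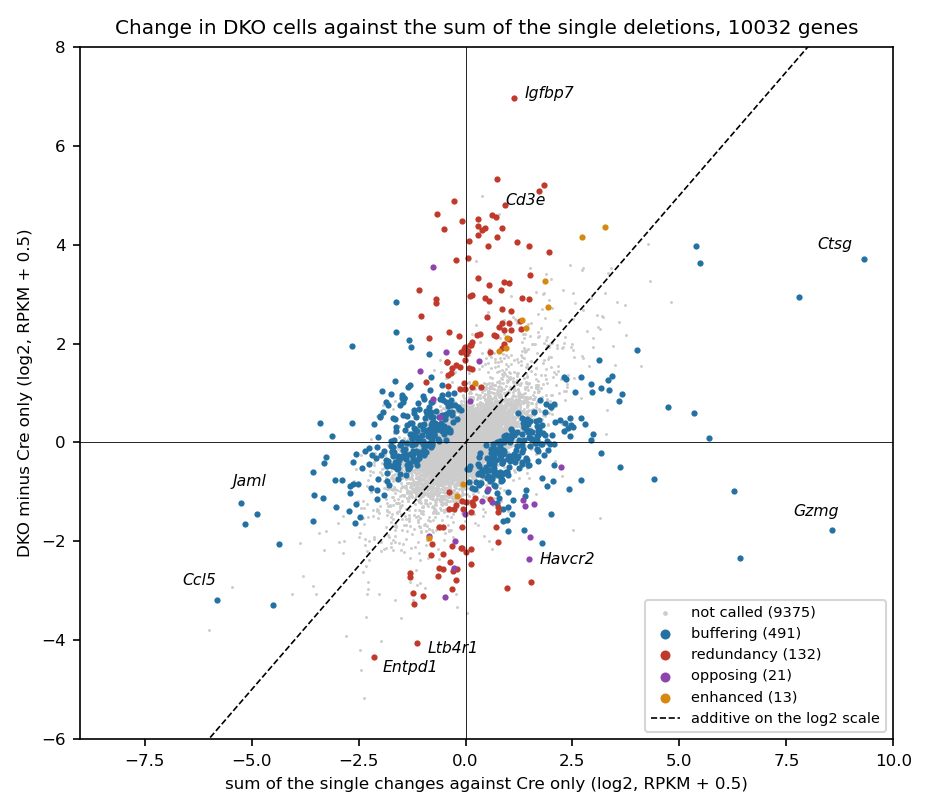
Log2 change of each of 10032 genes in DKO cells against Cre only cells (vertical axis) plotted against the sum of the Ikzf1 KO and Ikzf3 KO changes (horizontal axis), both on log2(RPKM + 0.5). The dashed line marks additivity. The 132 redundancy genes spread along the vertical axis where single changes are small. The 491 buffering genes fell short of the line or, in 288 of them, lay on the other side of Cre only from the sum.

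Buffering genes made up 74.7% of the called genes and redundancy genes 20.1%. All 132 redundancy genes were called in DKO against Cre only, where 18.7% of all genes were, and 127 were also called in DKO against each single deletion, where 7.48% (against Ikzf1 KO) and 20.1% (against Ikzf3 KO) of all genes were. Of those 127, 105 were called in neither single deletion. Redundancy was defined by a large DKO change and smaller single changes, so these counts largely follow from the definition. The comparisons also share libraries, so the counts are not independent of each other or of the interaction. Among buffering genes, 333 were called in Ikzf3 KO against Cre only and 112 in Ikzf1 KO against Cre only, while 14.2% and 6.32% of all genes were called in those comparisons. Called in both were 75 buffering genes, and in neither 121. In 225 buffering genes the single change of at least 0.5 was in Ikzf3 KO alone, in 38 it was in Ikzf1 KO alone, in 149 it was in both with the same sign, and in 79 it was in neither. The DKO level lay on the other side of Cre only from the sum in 288 of the 491. These were 154 of the 225, 24 of the 38, 32 of the 149 and 78 of the 79.

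The count of called genes depended on single libraries. It was 420 without DKO library S6 and 400, 379 and 381 without Ikzf1 KO libraries S12, S13 and S14, and it reached 848 without Ikzf3 KO library S1. Without Ikzf3 KO libraries S3 and S4 it was 1036, and without S1 and S2 it was 4097. Without Cre only libraries S16 and S17 it was 448, and 363 of the 657 genes were among them. In none of these fits did a gene of the 657 change direction. Of the 132 redundancy genes 82 kept their call with each of the 15 libraries left out in turn, of the 21 opposing genes 14, of the 491 buffering genes 233 and of the 13 enhanced genes 7. Where a gene whose values are given by library below lost its call without a single library or one of these pairs, or without S18 and S19, this is stated beside its value.

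**Figure D2:**
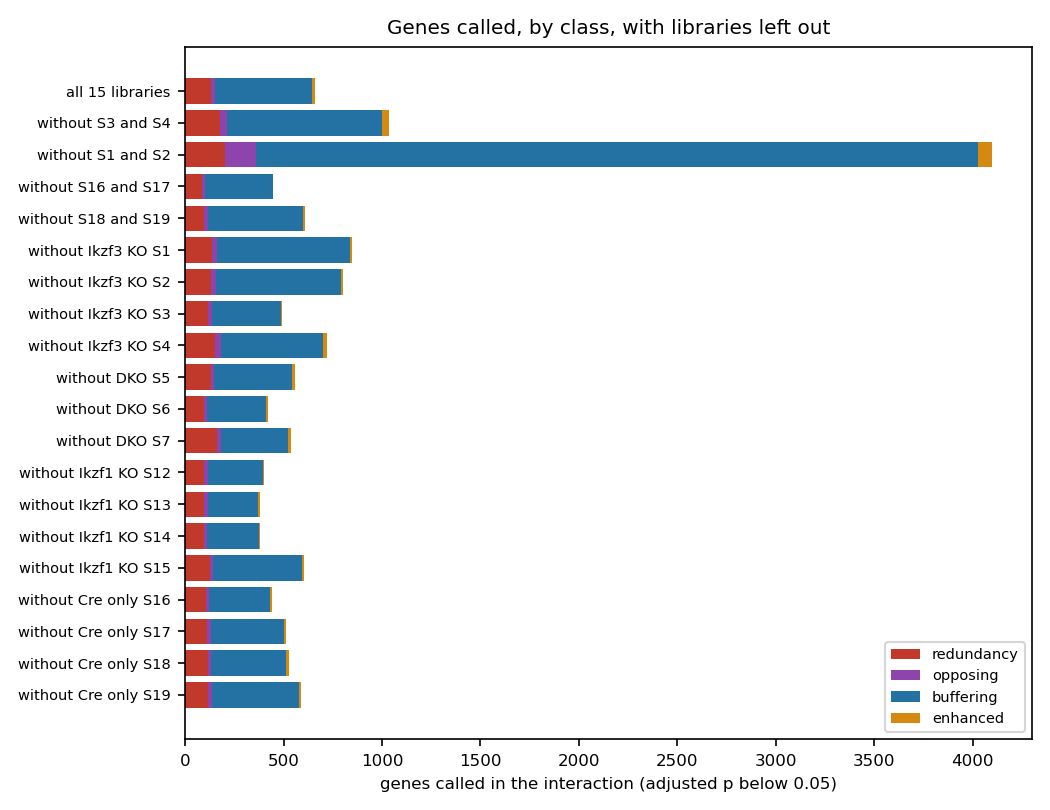
Number of genes called in the interaction (horizontal axis), divided by class, with all 15 libraries and with single libraries or pairs left out (vertical axis). Buffering is the widest part of each bar, and its length varies most, with 491 genes for all libraries, 256 without S13 and 3667 without S1 and S2.

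Redundancy genes above the sum numbered 87. Their leader was Igfbp7 (chr5:77349240-77408041), which encodes a secreted protein that binds insulin-like growth factors. Igfbp7 had 78.1, 67.4 and 57.6 RPKM in DKO libraries, 0.375, 0.478, 0.554 and 1.03 RPKM in Ikzf1 KO libraries, 0.139, 0.0942, 0 and 0.136 RPKM in Ikzf3 KO libraries and 0.172, 0, 0 and 0 RPKM in Cre only libraries. The gene was close to silent in all cells with at least 1 of the factors, and every DKO library lay far above every other library. Those levels rest on 1078 to 1660 reads in DKO libraries and on at most 3 reads in any Cre only library. Adding the single changes would have given 0.687 RPKM in DKO cells. The interaction was 5.83 ± 0.27 (adjusted p 2.39e-08, limma with Benjamini-Hochberg, lowest of all 10032 genes). Igfbp7 also rose in Ikzf1 KO cells by 1.01 on the log2 scale (adjusted p 0.00444).

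The 250 bases upstream of the annotated start (RefSeq, GRCm38.p6) are shown for the genes whose interactions had the smallest adjusted p above and below the sum among redundancy genes, Igfbp7 and Ltb4r1, and for the first among buffering genes, Jaml. Capitals mark TGGGAA on either strand, a core sequence that proteins of the Ikaros family bind. The stretches are chr5:77408046-77408295 on the minus strand, chr14:55765712-55765961 on the plus strand and chr9:45078933-45079182 on the plus strand.
Igfbp7: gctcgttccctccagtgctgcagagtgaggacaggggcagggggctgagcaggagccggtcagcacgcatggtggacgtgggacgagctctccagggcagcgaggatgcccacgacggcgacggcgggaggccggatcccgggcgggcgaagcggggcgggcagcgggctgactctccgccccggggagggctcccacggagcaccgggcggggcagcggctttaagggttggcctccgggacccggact
Ltb4r1: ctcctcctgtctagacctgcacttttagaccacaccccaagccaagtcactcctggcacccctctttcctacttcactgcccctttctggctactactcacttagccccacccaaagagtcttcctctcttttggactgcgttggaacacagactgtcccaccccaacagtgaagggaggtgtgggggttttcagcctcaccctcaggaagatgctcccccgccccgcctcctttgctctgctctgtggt
Jaml: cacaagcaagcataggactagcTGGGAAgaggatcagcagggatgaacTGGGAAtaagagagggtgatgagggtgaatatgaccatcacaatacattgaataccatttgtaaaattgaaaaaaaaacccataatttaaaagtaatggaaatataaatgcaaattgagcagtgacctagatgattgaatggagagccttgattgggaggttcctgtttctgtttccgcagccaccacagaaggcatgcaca
Jaml held 2 copies, which began 228 and 202 bases before its start (counted as -228 and -202), while the Igfbp7 and Ltb4r1 stretches held none. Over the 250 bases before the start, 113 of 466 called genes with a listed window, 24.2%, held TGGGAA on either strand. So did 23.2% of 7619 tested genes and 21.6% of all 32851 windows. The letters TGANTCA, read on both strands and covering the site that AP-1 dimers bind, were in 7.73% of the called genes, 5.08% of the tested genes and 6.75% of all windows. A match describes letters and not binding.

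Transcription factors, adaptors and receptors of lymphocytes were among the other redundancy genes above the sum. Batf3, an AP-1 factor of the basic leucine zipper type, had 3.49, 7.68 and 9.42 RPKM in DKO libraries, against 0.887, 0.258, 0.336 and 0.584 RPKM in Ikzf1 KO libraries, 0.158, 0.143, 0.0497 and 0 RPKM in Ikzf3 KO libraries and 0.303, 0.213, 0.093 and 0.153 RPKM in Cre only libraries. All DKO libraries were above all others, which stayed under 1 RPKM, and the interaction was 3.03 ± 0.39 (adjusted p 0.00063). Sit1, a transmembrane adaptor that tunes antigen receptor signals, had 10.2, 20.7 and 14.1 RPKM in DKO libraries, against 0.494, 0.719, 0.637 and 0.775 RPKM in Ikzf1 KO libraries, 1.67, 2.53, 0.881 and 1.7 RPKM in Ikzf3 KO libraries and 2.08, 2.48, 0.647 and 1.26 RPKM in Cre only libraries. Its interaction was 3.61 ± 0.44 (adjusted p 0.00063), and no DKO library overlapped another genotype. Gpr183, a receptor for oxysterols that guides lymphocytes within the spleen, reached 39.5, 22.9 and 18.9 RPKM in DKO libraries. It stayed at 1.75, 2.34, 2.07 and 1.82 RPKM in Ikzf1 KO libraries, 4.99, 5.29, 3.3 and 4.45 RPKM in Ikzf3 KO libraries and 3.04, 3.63, 1.36 and 2.08 RPKM in Cre only libraries, with an interaction of 2.63 ± 0.38 (adjusted p 0.0012). Tgfbr3, the TGF-beta coreceptor betaglycan, was tight but low, with 1.99, 1.94 and 1.83 RPKM in DKO libraries and at most 0.277 RPKM in any other (interaction 1.52 ± 0.20, adjusted p 0.000802, limma with Benjamini-Hochberg throughout).

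Other redundancy genes above the sum varied widely among DKO libraries. Chad, a leucine-rich matrix protein called chondroadherin, had 239, 45.4 and 20.2 RPKM in DKO libraries, with S5 far above S6 and S7, and between 1.37 and 4.24 RPKM in the 12 libraries of the other genotypes. Even so its interaction was 4.83 ± 0.77 (adjusted p 0.00235). Ccl17, a chemokine that attracts cells bearing CCR4, had 3.26, 28.3 and 48.4 RPKM in DKO libraries, now with S5 lowest, and at most 1.7 RPKM in any other library (interaction 4.23 ± 0.87, adjusted p 0.00987). Il7r, the IL-7 receptor alpha chain, had 7.43, 2.46 and 2.55 RPKM in DKO libraries and at most 1.24 RPKM elsewhere. The interaction of 2.30 ± 0.59 (adjusted p 0.0319) was lost without any of S5, S12 to S15, S16 or S17, without S16 and S17 together, and when 0.1 was added in place of 0.5. A list of 7 markers of innate lymphoid cells that holds Il7r summed to 394.8 to 401.3 RPKM in DKO, 350.9 to 409.9 RPKM in Ikzf1 KO, 47.11 to 67.15 RPKM in Ikzf3 KO and 48.57 to 194.8 RPKM in Cre only libraries. In DKO and Ikzf1 KO libraries most of that sum was Tmem176a and Tmem176b. They had 108.8 and 226 RPKM in DKO library S5 and 111.1 and 264.8 RPKM in Ikzf1 KO library S12. Il7r was at most 0.4885 RPKM in Ikzf1 KO libraries. The part of innate lymphoid cells in the Il7r value was not tested.

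Of a list of 11 CD3 chains and T cell genes, 5 were above the sum, none below, and 6 did not pass. The called share was 45.5%, beside 6.55% of all genes tested. Cd3e, a signalling chain of the T cell receptor complex, had 24.8, 42.4 and 44.8 RPKM in DKO libraries, 1.64, 2.73, 2.87 and 0.403 RPKM in Ikzf1 KO libraries, 1.67, 1.62, 0.935 and 1.33 RPKM in Ikzf3 KO libraries and 3.1, 2.5, 0.237 and 0.24 RPKM in Cre only libraries. DKO libraries did not overlap the others, and the interaction was 3.84 ± 0.77 (adjusted p 0.00874). Lat, the adaptor that links the receptor to downstream kinases and is also used by NK cells, had 32.3, 62.8 and 44.7 RPKM in DKO libraries, against 11.9, 12.4, 13.9 and 23.6 RPKM in Ikzf1 KO libraries, 11.2, 11.9, 12.6 and 15.4 RPKM in Ikzf3 KO libraries and 19.5, 23.8, 17.5 and 16.2 RPKM in Cre only libraries (interaction 2.14 ± 0.34, adjusted p 0.0021). The list's median interaction was 2.03, beside 0.00146 for all genes tested. The other 3 members above the sum were Cd247, Cd27 and Ubash3a, which were buffering genes. The neighbouring chains Cd3d and Cd3g did not pass (interactions 2.03 ± 0.84 and 2.68 ± 0.79, adjusted p 0.185 and 0.0576).

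Of 52 rearranging T cell receptor segments tested, 30 were called above the sum and 2 below it, beside 6.55% of all genes called in either direction, and 26 of the 30 were redundancy genes. Summed over 9 gamma chain segments, DKO libraries had 649, 628.9 and 792.7 RPKM, against 52.15 to 82.21 RPKM in Ikzf1 KO libraries, 19.16 to 52.11 RPKM in Ikzf3 KO libraries and 18.52 to 123.8 RPKM in Cre only libraries. Summed over 6 alpha chain segments the DKO libraries had 89.91, 200.3 and 142.9 RPKM, and no other library exceeded 29 RPKM. Summed over 5 delta chain segments, of which 1 was called above and 1 below the sum, the DKO libraries had 48.86, 39.24 and 67.76 RPKM, against 84.78 to 104.7 RPKM in Ikzf1 KO, 64.02 to 122.7 RPKM in Ikzf3 KO and 114.1 to 146 RPKM in Cre only libraries. Delta segments thus lay lowest in DKO libraries, overlapping Ikzf3 KO, while gamma and alpha segments lay highest there. Beta chain segments were abundant in all genotypes, at 1469 to 2859 RPKM in DKO, 1141 to 1353 RPKM in Ikzf1 KO, 1669 to 2426 RPKM in Ikzf3 KO and 1379 to 1844 RPKM in Cre only libraries. Although these sums overlapped between DKO and Cre only, 18 of the 32 beta segments were called above the sum and 1 below it. Of the gamma segments 7 of 9 were called above the sum, and of the alpha segments 4 of 6. Segments of 1 locus resemble each other, and reads may have been split between them. A list of 8 T cell markers, of which 6 were in the table, summed to 677.9 to 769.7 RPKM in DKO, 398.6 to 431.2 RPKM in Ikzf1 KO, 380.5 to 494.7 RPKM in Ikzf3 KO and 350.4 to 555 RPKM in Cre only libraries. Most of that sum was Thy1, which NK cells also express. Cd4 was at most 1.299 RPKM and Cd8a at most 0.7607 RPKM in any library. In bulk RNA, a few T cells and a low level in many NK cells cannot be told apart, nor can fewer cells and less RNA per cell for any gene that fell, and the part of T cells in these results was not tested.

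**Figure D3:**
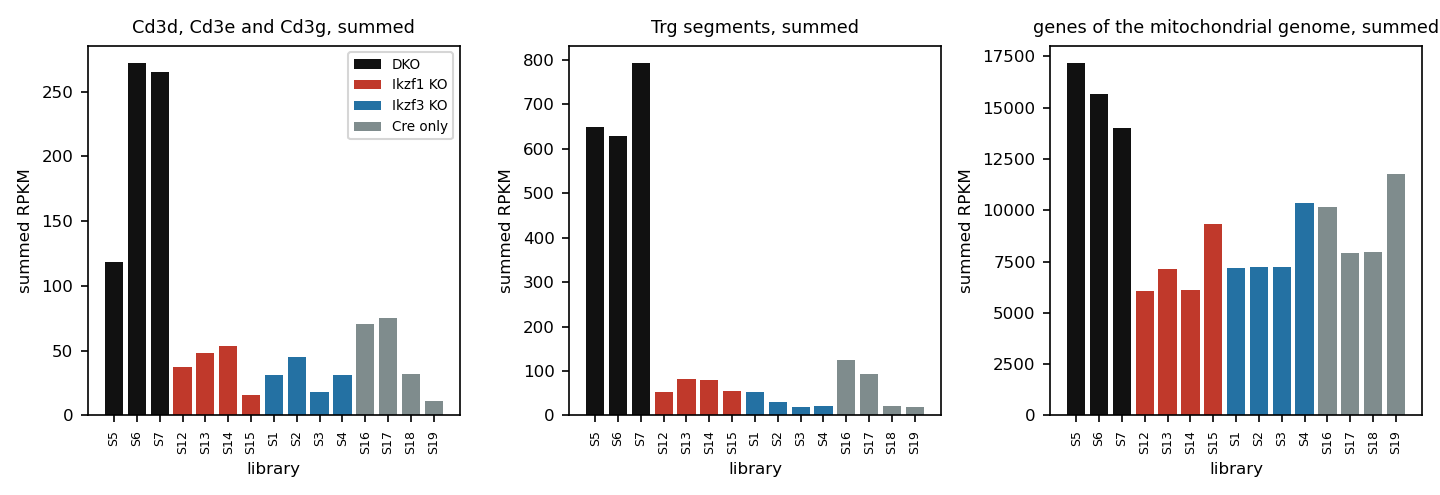
Summed RPKM in each library (bars, coloured by genotype, DKO at the left) of Cd3d, Cd3e and Cd3g, of the T cell receptor gamma segments, and of genes of the mitochondrial genome. Gamma segments in the 3 DKO libraries lie at 628.9 to 792.7, above all other libraries, and the CD3 genes are lowest of the DKO libraries in S5.

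Redundancy genes below the sum numbered 45, and 37 of them were called in DKO against all 3 other genotypes and in neither single deletion. This count, too, largely follows from the definition of the class. Ltb4r1 (chr14:55765962-55768494), the leukotriene B4 receptor through which leukocytes are attracted, had 3.37, 4.96 and 7.18 RPKM in DKO libraries, against 34.2, 33.5, 35.5 and 33.3 RPKM in Ikzf1 KO libraries, 87.3, 107, 136 and 114 RPKM in Ikzf3 KO libraries and 85.9, 113, 99.4 and 70.3 RPKM in Cre only libraries. Ikzf1 KO libraries lay together between the DKO libraries and the rest, and the sum of the single changes corresponded to 41.3 RPKM. The interaction was -2.94 ± 0.29 (adjusted p 0.000145), and Ltb4r1 fell in Ikzf1 KO cells too, by -1.40 on the log2 scale (adjusted p 0.00073). Entpd1 encodes CD39, an enzyme that degrades extracellular ATP. It had 0.878, 1.22 and 0.694 RPKM in DKO libraries, against 22, 21.7, 22.5 and 18.6 RPKM in Ikzf1 KO libraries, 9.71, 11.3, 10.4 and 3.6 RPKM in Ikzf3 KO libraries and 23.4, 29.1, 35 and 26.2 RPKM in Cre only libraries. The DKO libraries did not overlap the others although Ikzf3 KO already lowered Entpd1 (-1.74 on the log2 scale, adjusted p 0.00117), and the interaction was -2.19 ± 0.40 (adjusted p 0.00519).

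Jun, the founding partner of AP-1 dimers, was the second AP-1 gene called. It had 5.18, 6.51 and 10.3 RPKM in DKO libraries, against 30.9, 29.2, 27.3 and 28.7 RPKM in Ikzf1 KO libraries, 55.6, 54.7, 47.1 and 21.6 RPKM in Ikzf3 KO libraries and 35.8, 46.1, 56.5 and 37.7 RPKM in Cre only libraries. Each DKO library was below every other one, and the single changes of -0.57 and -0.05 (Ikzf1 KO and Ikzf3 KO, log2) did not pass (adjusted p 0.268 and 0.923). The interaction was -1.92 ± 0.40 (adjusted p 0.0103). Jun lost the call in the libraries other than S5, S15, S18 and S19, a set left out together after the data had been seen (adjusted p 0.0729). Of the 12 AP-1 genes tested, 16.7% were called, beside 6.55% of all genes. Batf3 was above the sum, Jun below it and 10 did not pass, with a median interaction of -0.08. Next by p was Mafk, a small Maf protein, with an interaction of 1.67 ± 0.55 and an adjusted p of 0.0914. Of 18 immediate-early genes outside AP-1, limma called none, and 3 had an unadjusted p under 0.05.

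Further genes below the sum in this class had little in common in function. Rasd2, a small GTPase, had 0, 0.0772 and 0.305 RPKM in DKO libraries and 1.85 to 9.64 RPKM elsewhere (interaction -3.92 ± 0.53, adjusted p 0.000845). Filip1, which binds filamin, had 0.079, 0.144 and 0.228 RPKM in DKO libraries and 2.19 to 9.01 RPKM elsewhere (interaction -2.65 ± 0.44, adjusted p 0.00311). Neither range overlapped that of DKO. Serpinb6a, a protease inhibitor, had 4.33, 11.1 and 13 RPKM in DKO libraries, all below the 20.7 to 51.3 RPKM of the others (interaction -2.16 ± 0.43, adjusted p 0.00796). Genes on the opposite strand overlap 29.3% of the exon bases of Serpinb6a, so its value is uncertain. Hist1h1c, a linker histone, was even in DKO libraries at 5.9, 7.04 and 6.37 RPKM but split in Cre only libraries, at 13.9, 13.2, 67.4 and 45.8 RPKM. Its interaction was -2.78 ± 0.66 (adjusted p 0.0222). Vsir, the checkpoint VISTA, had 18, 7.51 and 13.7 RPKM in DKO libraries, against 72.8, 92.8, 47.2 and 29.5 RPKM in Cre only libraries. The interaction of Vsir, -2.03 ± 0.51 (adjusted p 0.031), was lost without any of S3, S6, S12 to S14 or S18, without S3 and S4 together and without S18 and S19 together.

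**Figure D4:**
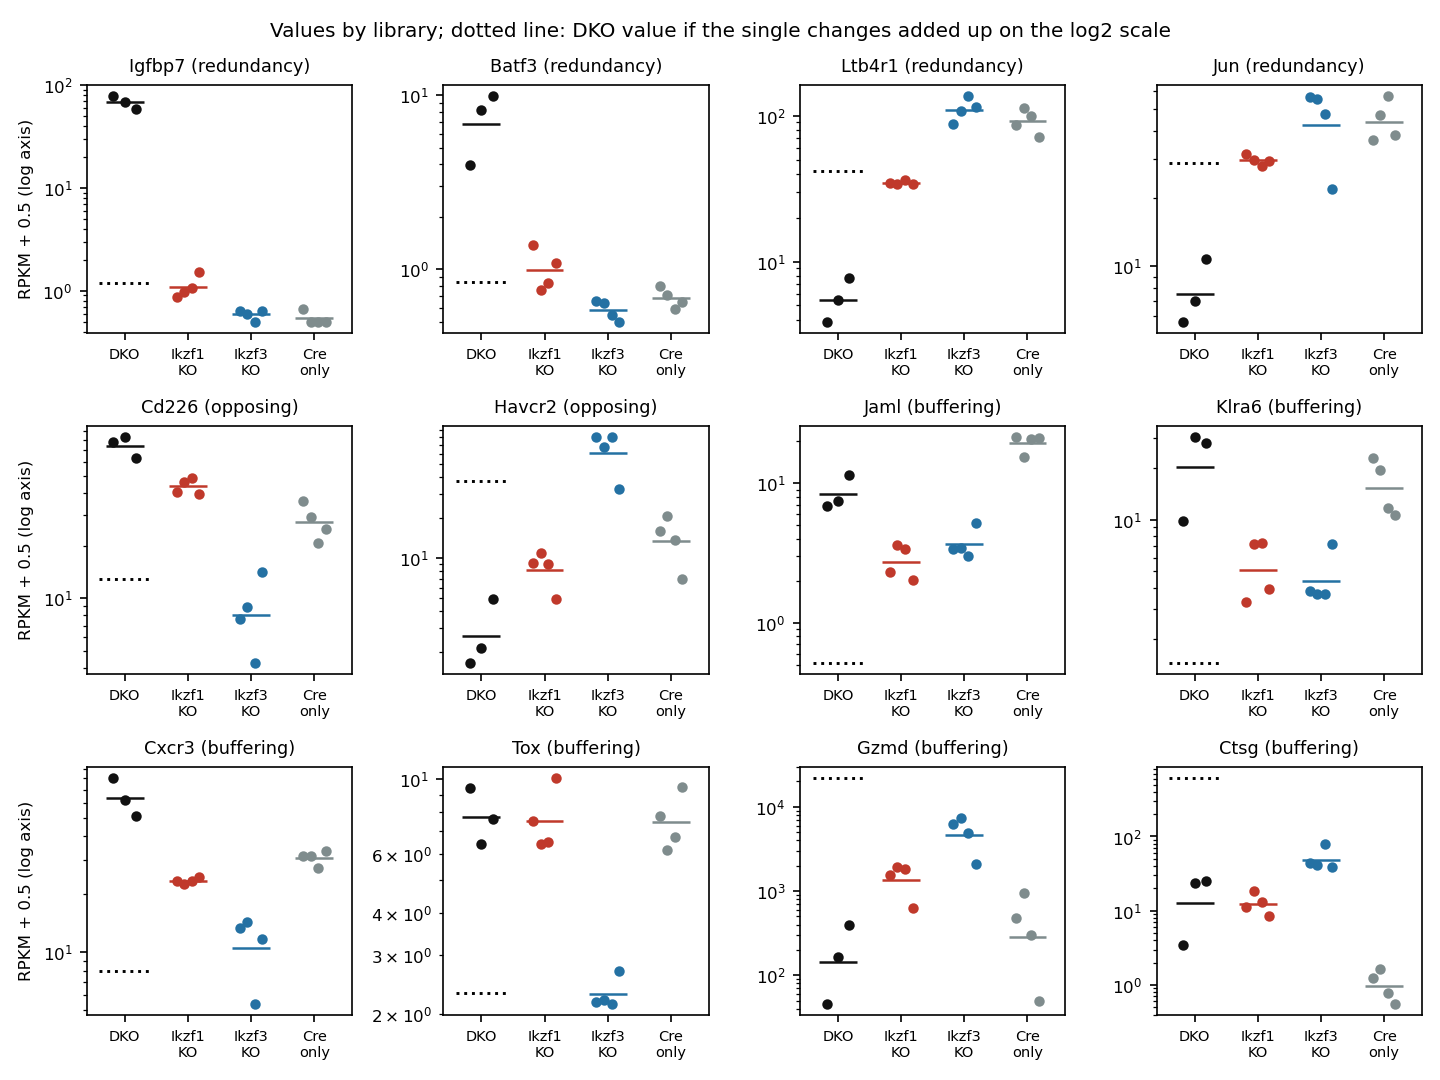
RPKM + 0.5 on a log axis for 12 genes in each library (points), by genotype from DKO at the left to Cre only at the right, with bars at the mean of the log values. The dotted line is the DKO level under additivity, which was 0.687 RPKM for Igfbp7 and 41.3 RPKM for Ltb4r1 before the 0.5 was added.

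Opposing genes numbered 21, with 7 above and 14 below the sum. The sorting used group means, and 9 of the 21 were called in Ikzf1 KO against Cre only, 18 in Ikzf3 KO and 7 in both. Of all genes 6.32% and 14.2% were called in those 2 comparisons. The Ikzf1 KO changes of Havcr2, Capn5, Mgat3, Dixdc1, Ctla4, Cd226, Slc2a6 and Inpp4b did not pass (limma adjusted p 0.0885 to 0.382). The genes named from the 14 below the sum had their highest level in Ikzf3 KO cells and a level in DKO cells no higher than in Cre only cells. Havcr2 encodes the inhibitory receptor TIM-3. It had 1.16, 1.64 and 4.49 RPKM in DKO libraries, 8.7, 10.4, 8.47 and 4.43 RPKM in Ikzf1 KO libraries, 79, 67.1, 79.7 and 32 RPKM in Ikzf3 KO libraries and 15.4, 20.3, 13.2 and 6.54 RPKM in Cre only libraries. Ikzf3 KO libraries were the highest, and DKO libraries lay below Cre only libraries and overlapped Ikzf1 KO library S15. Havcr2 rose by 2.19 in Ikzf3 KO cells against Cre only and fell by 2.36 in DKO cells (log2; adjusted p 0.00397 and 0.00207), and the interaction was -3.84 ± 0.60 (adjusted p 0.00205). Capn5, a calcium-dependent protease, followed the same order with 0.171, 0.161 and 0.683 RPKM in DKO libraries, 1.2, 1.55, 1.11 and 0.835 RPKM in Ikzf1 KO libraries, 15.1, 12.8, 28 and 10.4 RPKM in Ikzf3 KO libraries and 1.83, 3.05, 3.85 and 1.88 RPKM in Cre only libraries. Its DKO and Ikzf3 KO libraries lay on either side of Cre only without overlap (interaction -3.42 ± 0.44, adjusted p 0.000649).

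Of the same kind, Mgat3, which adds a bisecting sugar to N-glycans, had 0.0576, 0.0631 and 0.36 RPKM in DKO libraries and 5.29, 3.71, 12.3 and 4.98 RPKM in Ikzf3 KO libraries, against at most 0.641 RPKM in Cre only libraries. Its interaction was -2.72 ± 0.43 (adjusted p 0.00235). Dixdc1, a Wnt pathway protein, had 1.78, 0.684 and 1.33 RPKM in DKO libraries and 17.3, 14, 28.9 and 19.2 RPKM in Ikzf3 KO libraries, against 3.59, 4.25, 5 and 2.33 RPKM in Cre only libraries (interaction -2.68 ± 0.48, adjusted p 0.00508). For both, the Ikzf3 KO libraries stood alone at the top. Ctla4, a checkpoint receptor, had 0.0288, 0.147 and 1.44 RPKM in DKO libraries and 5.89, 6.16, 23.5 and 15.7 RPKM in Ikzf3 KO libraries, where S3 and S4 were highest. Its interaction was -2.85 ± 0.73 (adjusted p 0.0322) and was lost without any of 10 libraries, without S3 and S4 together and without S18 and S19 together. Of 12 inhibitory checkpoint genes tested, 4 were below the sum (Havcr2, Ctla4, Entpd1 and Vsir), 2 were above it (Tox and Lair1) and 6 did not pass. The called share was 50%, beside 6.55% of all genes. The checkpoint list had a median interaction of -0.14.

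Cd226 and Slc2a6 went the other way, down in Ikzf3 KO cells and up in DKO cells. Cd226 encodes DNAM-1, an activating receptor for nectin-like ligands. It had 77.1, 82.5 and 62.3 RPKM in DKO libraries, 39.8, 45.4, 47.8 and 39 RPKM in Ikzf1 KO libraries, 7.14, 8.45, 3.81 and 13.6 RPKM in Ikzf3 KO libraries and 35.3, 28.6, 20.2 and 24.4 RPKM in Cre only libraries. The genotypes were ordered without overlap, DKO highest and Ikzf3 KO lowest. Cd226 rose by 1.45 in DKO cells and fell by 1.75 in Ikzf3 KO cells against Cre only (log2, adjusted p 0.00372 and 0.00131). The interaction was 2.52 ± 0.40 (adjusted p 0.00242). Slc2a6, a glucose transporter family member, had 23.9, 40.8 and 30.9 RPKM in DKO libraries, 14.6, 11.2, 12.4 and 14.5 RPKM in Ikzf1 KO libraries, 3.28, 4.29, 3.91 and 3.75 RPKM in Ikzf3 KO libraries and 11.4, 9.08, 4.9 and 9.75 RPKM in Cre only libraries, again with DKO highest and Ikzf3 KO lowest (interaction 2.27 ± 0.32, adjusted p 0.00117).

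Kbtbd11, a kelch repeat protein, had the reverse pair of single changes. It had 33.9, 24.3 and 28.3 RPKM in DKO libraries, 4.89, 5.45, 5.17 and 6.1 RPKM in Ikzf1 KO libraries, 21.1, 18.4, 17.6 and 15.6 RPKM in Ikzf3 KO libraries and 10.9, 10.9, 6.61 and 7.69 RPKM in Cre only libraries. Kbtbd11 fell in Ikzf1 KO cells by 0.67 and rose in Ikzf3 KO cells by 0.99 (log2, adjusted p 0.0272 and 0.00203). DKO libraries were above all others, Ikzf3 KO libraries included (0.65, adjusted p 0.0206) (interaction 1.31 ± 0.24, adjusted p 0.00598). An antisense transcript overlaps 24.8% of its exon bases, and the strand setting of the counting is not given in the sources used here. Inpp4b, a phosphoinositide phosphatase, had 21.4, 12.5 and 12.8 RPKM in DKO and 3.64, 3.31, 1.65 and 1.98 RPKM in Ikzf3 KO libraries, with 10.1, 9.29, 6.57 and 6.5 RPKM in Cre only libraries. The Inpp4b interaction of 1.65 ± 0.34 (adjusted p 0.0103) was lost without S16 and S17 (adjusted p 0.0583).

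Buffering genes of the shared kind had differences of the same sign in both single deletions by group means, and the DKO level fell short of their sum. In Ikzf1 KO against Cre only, those of Gzmd, Gzme, Gzmf, Gzmg, Gzmn, Scd1, Slfn8 and Lta did not pass (limma adjusted p 0.0532 to 0.141). In Ikzf3 KO those of Bmf, Ltb and Aurka did not pass (0.0626 to 0.229), and H2-Eb1 passed in neither (0.384 and 0.12). In 32 of these 149 genes the DKO level lay on the other side of Cre only. The most extreme among those below the sum were granzymes, the serine proteases of cytotoxic granules. Gzmd had 45.4, 166 and 397 RPKM in DKO libraries, 1547, 1922, 1834 and 632 RPKM in Ikzf1 KO libraries, 6278, 7303, 4901 and 2082 RPKM in Ikzf3 KO libraries and 478, 950.2, 296 and 49.5 RPKM in Cre only libraries. DKO libraries overlapped Cre only libraries, and all Ikzf3 KO libraries were above both. Gzmd rose in Ikzf3 KO cells by 4.02 (log2, adjusted p 0.00624), while 2.25 in Ikzf1 KO cells did not pass (adjusted p 0.125), and the interaction was -7.25 ± 1.19 (adjusted p 0.0029). Additivity would have meant 22119.6 RPKM on the log2 scale and 6181 RPKM on the linear scale.

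Gzmf, Gzmg and Gzmn followed the same order. Gzmf had 0.073, 0.694 and 0.984 RPKM in DKO libraries, 39, 69.1, 43.8 and 12.8 RPKM in Ikzf1 KO libraries, 99.9, 102, 93.4 and 14.6 RPKM in Ikzf3 KO libraries and 8.28, 15.7, 5.17 and 0.333 RPKM in Cre only libraries (interaction -8.75 ± 1.23, adjusted p 0.00113). Gzmg had 2.73, 18.3 and 72.7 RPKM in DKO libraries, 701, 1123, 849 and 124 RPKM in Ikzf1 KO libraries, 3009, 3548, 2901 and 829 RPKM in Ikzf3 KO libraries and 93.5, 202, 59.6 and 8.41 RPKM in Cre only libraries (interaction -10.35 ± 1.52, adjusted p 0.00136). In both genes Cre only libraries spread widely and S19 was lowest, while no DKO library reached any Ikzf1 KO or Ikzf3 KO library. Gzmn was low throughout, with 0, 0 and 0.0652 RPKM in DKO libraries and 5.78, 5.29, 5.46 and 1.42 RPKM in Ikzf3 KO libraries (interaction -4.11 ± 0.55, adjusted p 0.000784). The interaction of Gzme was -5.60 ± 1.31 (adjusted p 0.0205) and was lost without S5. These genes lie side by side on the minus strand of chromosome 14, from Gzme at chr14:56117626-56120625 to Gzmf at chr14:56205263-56211417. They resemble each other, so reads may have been split or lost among them.

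Ctsg, the granule protease cathepsin G, neighbours the granzymes at chr14:56099881-56102574 and had a different order. It had 2.99, 22.9 and 24.9 RPKM in DKO libraries, 10.6, 18.1, 12.8 and 7.96 RPKM in Ikzf1 KO libraries, 42.9, 41, 78.8 and 37.9 RPKM in Ikzf3 KO libraries and 0.736, 1.12, 0.288 and 0.0592 RPKM in Cre only libraries. Every library with a deletion was above every Cre only library, and DKO overlapped Ikzf1 KO. Ctsg rose by 3.67 in Ikzf1 KO, 5.64 in Ikzf3 KO and 3.72 in DKO cells against Cre only (log2, adjusted p 0.000898, 3.94e-05 and 0.000462). The interaction was -5.60 ± 0.79 (adjusted p 0.00113). Of 25 genes of the granzyme and perforin list, 7 were below the sum, 3 above and 15 did not pass, with a median of -0.51. The called share was 40%, beside 6.55% of all genes. Ctsg, Gzmd, Gzme, Gzmf, Gzmg and Gzmn, which lie close together on chromosome 14, were among the 7 below. The 3 above held Tnfsf10, which is also counted in the TNF family list below. Gzma, Gzmb and Prf1, the main cytotoxic effectors, were among the 15, with interactions of -1.12 ± 0.42, -1.15 ± 0.85 and -2.16 ± 0.78 (adjusted p 0.142, 0.457 and 0.122).

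Klrg1, an inhibitory receptor of mature NK cells, rose in each single deletion. It had 17.6, 21.2 and 17.6 RPKM in DKO libraries, 24.5, 26.2, 29.4 and 36.1 RPKM in Ikzf1 KO libraries, 28.2, 29.8, 63.9 and 48.3 RPKM in Ikzf3 KO libraries and 17.2, 16.7, 11.2 and 9 RPKM in Cre only libraries. DKO libraries lay just above Cre only libraries and below all libraries with a single deletion, and the interaction was -2.19 ± 0.38 (adjusted p 0.0043). Without S5, S15, S18 and S19 its adjusted p was 0.0533. Scd1, a fatty acid desaturase, had 0.153, 5.01 and 14.4 RPKM in DKO libraries, with S5 lowest, against 26.1, 30.9, 26.4 and 31.7 RPKM in Ikzf1 KO libraries, 36.8, 32.9, 30.3 and 18.5 RPKM in Ikzf3 KO libraries and 5.41, 6.8, 8.69 and 3.54 RPKM in Cre only libraries (interaction -5.16 ± 0.96, adjusted p 0.00594). Bmf, a pro-apoptotic BCL-2 family member, had 9.33, 3.2 and 5.72 RPKM in DKO libraries, against 16.5, 15.6, 17.2 and 21.2 RPKM in Ikzf1 KO libraries, 6.75, 5.05, 15.3 and 12.5 RPKM in Ikzf3 KO libraries and 3.99, 3.44, 7.8 and 6.18 RPKM in Cre only libraries. The Bmf interaction of -2.33 ± 0.52 (adjusted p 0.0151) was lost without S16 and S17 (adjusted p 0.0774).

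Among shared buffering genes above the sum, the single deletions had lower levels than Cre only, and DKO cells were closer to Cre only than the sum. Jaml (chr9:45079183-45108534), an adhesion molecule of the junctional family, had 6.37, 6.95 and 11 RPKM in DKO libraries, 1.8, 3.11, 2.89 and 1.52 RPKM in Ikzf1 KO libraries, 2.87, 2.93, 2.53 and 4.69 RPKM in Ikzf3 KO libraries and 21.1, 15, 20.1 and 20.7 RPKM in Cre only libraries. DKO libraries lay between the single deletions and Cre only without overlap. Jaml fell by 2.83 in Ikzf1 KO cells and by 2.41 in Ikzf3 KO cells against Cre only (log2, adjusted p 5.39e-06 and 3.94e-05), the sum corresponded to 0.0156 RPKM, and the interaction was 4.02 ± 0.34 (adjusted p 4.32e-05). On the linear scale the sum of the single changes lay below 0 RPKM (-13.6). Its upstream stretch is the one printed above with 2 copies of TGGGAA.

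Klra6, an inhibitory receptor of the Ly49 family, reached Cre only levels in DKO cells. It had 9.32, 29.8 and 27.5 RPKM in DKO libraries, 2.79, 6.73, 6.78 and 3.43 RPKM in Ikzf1 KO libraries, 3.32, 3.16, 3.2 and 6.72 RPKM in Ikzf3 KO libraries and 22.3, 19, 11.2 and 10.1 RPKM in Cre only libraries. DKO libraries overlapped Cre only libraries, and all of both were above all single deletion libraries. Its interaction was 3.79 ± 0.58 (adjusted p 0.00174), and the other 10 Ly49 genes tested did not pass. The called share of the Ly49 list was 9.09%, near the 6.55% of all genes. Ly49 genes resemble each other, so their counts are uncertain. Lta, the cytokine lymphotoxin alpha, had 2.33, 5.71 and 4.76 RPKM in DKO libraries, 1.02, 1.01, 1.31 and 1.09 RPKM in Ikzf1 KO libraries, 1.64, 0.988, 1.09 and 0.655 RPKM in Ikzf3 KO libraries and 3.15, 4.13, 1.45 and 2.52 RPKM in Cre only libraries, with an interaction of 2.52 ± 0.41 (adjusted p 0.00296). Smad3, which carries TGF-beta signals to the nucleus, had 21.9, 17 and 20.6 RPKM in DKO libraries, 8.55, 7.51, 7.82 and 15.1 RPKM in Ikzf1 KO libraries, 7.81, 7.85, 14.1 and 14 RPKM in Ikzf3 KO libraries and 21.4, 19.3, 18.2 and 25.5 RPKM in Cre only libraries. Its DKO and Cre only libraries overlapped and its DKO libraries were above all single deletion libraries (interaction 2.00 ± 0.35, adjusted p 0.00465).

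Itga2, which encodes the NK cell integrin CD49b, had 6.12, 5.03 and 3.93 RPKM in DKO libraries, 2.22, 1.56, 2.07 and 2.97 RPKM in Ikzf1 KO libraries, 2.15, 2.16, 1.95 and 2.7 RPKM in Ikzf3 KO libraries and 3.8, 3.27, 8.05 and 8.26 RPKM in Cre only libraries. DKO overlapped Cre only and lay above both single deletions (interaction 2.15 ± 0.39, adjusted p 0.00522). Among 19 integrin and adhesion genes 4 were above the sum, Jaml, Itga2, Itgal and Icam2, and 15 did not pass (median 0.435). That is 21.1% called, beside 6.55% of all genes. Ccl5, an inflammatory chemokine made by NK cells, showed buffering on top of a fall. It had 41.7, 84.2 and 119.7 RPKM in DKO libraries, 278, 209, 264 and 333 RPKM in Ikzf1 KO libraries, 18.6, 23.6, 50.6 and 40.1 RPKM in Ikzf3 KO libraries and 684, 689.7, 801 and 580.4 RPKM in Cre only libraries. Cre only libraries were highest without overlap, and Ccl5 fell in all 3 deleted genotypes. The interaction was 2.63 ± 0.48 (adjusted p 0.00532), and Ccl5, Lta and Ltb were the 3 of 14 chemokine and cytokine genes called, all above the sum (median 1.58). That is 21.4%, beside 6.55% of all genes. Ltb kept its call in 6 of the 15 fits with 1 library left out, and lost it without S16 and S17 (limma adjusted p 0.155). Slfn8, of the Schlafen family, had 1.33, 1.46 and 1.53 RPKM in DKO libraries and 1.15, 0.919, 0.447 and 0.443 RPKM in Ikzf3 KO libraries, against 12.2, 14.9, 12.6 and 10.7 RPKM in Ikzf1 KO libraries and 17.5, 18.1, 20.0 and 17.9 RPKM in Cre only libraries. Its interaction was 1.22 ± 0.25 (adjusted p 0.0103), and 0.0882 without S5, S15, S18 and S19.

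In the 225 buffering genes with a single change in Ikzf3 KO alone, the DKO level lay closer to Cre only than the sum did, or on its other side. Of these genes 112 were above the sum and 113 below. Cxcr3, a chemokine receptor for inflamed tissue, had 80.2, 61 and 50.7 RPKM in DKO libraries, 22.9, 22.1, 22.9 and 24 RPKM in Ikzf1 KO libraries, 12.8, 13.9, 4.91 and 11.2 RPKM in Ikzf3 KO libraries and 31, 31, 26.9 and 33 RPKM in Cre only libraries. No group overlapped another. Cxcr3 fell by 1.56 in Ikzf3 KO cells and rose by 1.04 in DKO cells against Cre only (log2, adjusted p 0.00131 and 0.0137), and the interaction was 2.99 ± 0.36 (adjusted p 0.000617). Of 12 chemokine and egress receptors tested, 4 were above the sum, Cxcr3, Gpr183 and Ccr2 among them, Ltb4r1 was below it, and 7 did not pass (median 1.13). The called share was 41.7%, beside 6.55% of all genes.

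Tox, a nuclear factor of lymphocyte development and exhaustion, was the plainest case. It had 8.95, 5.91 and 7.09 RPKM in DKO libraries, 6.99, 5.93, 6.02 and 9.6 RPKM in Ikzf1 KO libraries, 1.68, 1.71, 1.65 and 2.2 RPKM in Ikzf3 KO libraries and 7.27, 5.64, 6.25 and 8.99 RPKM in Cre only libraries. Ikzf3 KO libraries stood alone at the bottom, and the other 3 genotypes overlapped. Tox fell in Ikzf3 KO cells by 1.69 (log2, adjusted p 8.26e-05), and its interaction was 1.73 ± 0.27 (adjusted p 0.00174). Susd2, a membrane protein, went further, with 18.2, 9.07 and 8.69 RPKM in DKO libraries, 2.52, 2.02, 2.48 and 2.16 RPKM in Ikzf1 KO libraries, 0.294, 0.398, 0.0463 and 0.192 RPKM in Ikzf3 KO libraries and 3.62, 2.43, 1.32 and 1.25 RPKM in Cre only libraries. It was lowest in Ikzf3 KO and highest in DKO libraries, each without overlap (interaction 3.87 ± 0.42, adjusted p 0.000281). Il2rg, the common chain of the receptors for IL-2 and IL-15, had 137, 139 and 131 RPKM in DKO libraries, 140.5, 131, 128 and 145 RPKM in Ikzf1 KO libraries, 91.2, 87.9, 77.8 and 53.5 RPKM in Ikzf3 KO libraries and 192, 184, 159.6 and 165 RPKM in Cre only libraries. DKO and Ikzf1 KO libraries overlapped between the other groups (interaction 1.19 ± 0.22, adjusted p 0.00557).

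Tnfsf8 and Tnfsf10, ligands of the TNF family, and the class II genes Cd74 and H2-Aa were also among them. Tnfsf8, the CD30 ligand, had 6.52, 11.7 and 14.6 RPKM in DKO libraries, 4.63, 6.92, 5.93 and 3.77 RPKM in Ikzf1 KO libraries, 1.72, 2.21, 1.38 and 2.92 RPKM in Ikzf3 KO libraries and 9.01, 6.05, 5.54 and 8.13 RPKM in Cre only libraries (interaction 2.53 ± 0.38, adjusted p 0.00166). Tnfsf10, the death ligand TRAIL, had 62.6, 55.6 and 47.7 RPKM in DKO libraries, 13, 14.5, 7.92 and 20.2 RPKM in Ikzf3 KO libraries and 35.3, 24.8, 28.6 and 35.8 RPKM in Cre only libraries. Its interaction was 1.62 ± 0.32 (adjusted p 0.0084), and 0.0706 without S5, S15, S18 and S19. Both were lowest in Ikzf3 KO libraries without overlap. Of 14 TNF family genes tested, Tnfsf8, Tnfsf10, Lta and Ltb were above the sum and 10 did not pass (median 0.47). That is 28.6% called, beside 6.55% of all genes.

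Cd74, the invariant chain of MHC class II, had 17.6, 22.3 and 34.9 RPKM in DKO libraries, 5.83, 3.16, 4.32 and 9.58 RPKM in Ikzf1 KO libraries, 0.776, 0.485, 0.62 and 0.526 RPKM in Ikzf3 KO libraries and 17.5, 10.5, 1.69 and 3.21 RPKM in Cre only libraries. DKO libraries were above all others and Ikzf3 KO libraries below all others, and Cre only libraries were split, S16 and S17 above S18 and S19. The interaction was 4.61 ± 0.77 (adjusted p 0.0032). The class II chain H2-Aa had 8.99, 8.01 and 12 RPKM in DKO libraries and 5.5, 4.13, 0.555 and 0.588 RPKM in Cre only libraries, split the same way (interaction 3.39 ± 0.73, adjusted p 0.0132). H2-Eb1, another chain and a buffering gene of the shared kind, had an interaction of 2.34 ± 0.52 (adjusted p 0.0159), lost without S16 and S17 (adjusted p 0.0551). Cd74, H2-Aa and H2-Eb1 were the 3 called of 7 class II genes (median 0.45), 42.9% beside 6.55% of all genes. Cd79b, the 1 B cell marker of 5 in the table, was 0.516, 2.228 and 1.625 RPKM in DKO libraries, 0.7765 to 1.545 RPKM in Ikzf1 KO, at most 0.07957 RPKM in Ikzf3 KO and 0.1557 to 0.5224 RPKM in Cre only libraries. The myeloid marker Lyz2 was 0.9181, 1.938 and 1.276 RPKM in DKO libraries and at most 0.4729 RPKM in any other library. A list of 5 monocyte and macrophage markers, of which 2 were in the table, summed to 1.473 to 3.468 RPKM in DKO, 1.411 to 1.774 RPKM in Ikzf1 KO, 1.521 to 4.65 RPKM in Ikzf3 KO and 0.07782 to 0.6141 RPKM in Cre only libraries. The part of other antigen-presenting cells in the class II values was not tested.

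Of the amino acid stress response, which cells switch on when amino acids run short, 4 genes rose in Ikzf3 KO cells against Cre only and lay below Cre only in DKO cells. Atf5, a transcription factor of that response, had 3.64, 2.98 and 4.67 RPKM in DKO libraries, 7.22, 7.33, 8 and 7.05 RPKM in Ikzf1 KO libraries, 9.8, 10.6, 13.1 and 11.5 RPKM in Ikzf3 KO libraries and 5.59, 8.25, 7.15 and 5.86 RPKM in Cre only libraries. DKO libraries were the lowest and Ikzf3 KO libraries the highest, both without overlap, and the interaction was -1.62 ± 0.22 (adjusted p 0.000845). Trib3, a pseudokinase induced by stress, had 4.3, 2.82 and 4.07 RPKM in DKO libraries, 5.31, 7.03, 5.58 and 2.93 RPKM in Ikzf1 KO libraries, 24.7, 28.2, 69 and 41.6 RPKM in Ikzf3 KO libraries and 6.18, 8.38, 7.2 and 5.15 RPKM in Cre only libraries. Its Ikzf3 KO libraries stood alone at the top (interaction -2.82 ± 0.44, adjusted p 0.00205). Asns, which makes asparagine, had 1.15, 5.26 and 7.48 RPKM in DKO libraries, 11.4, 14.8, 11.8 and 12.3 RPKM in Ikzf1 KO libraries, 38.7, 46.6, 44.7 and 34.6 RPKM in Ikzf3 KO libraries and 8.57, 9.84, 22.1 and 20.3 RPKM in Cre only libraries (interaction -3.13 ± 0.59, adjusted p 0.00642). Asns too was lowest in DKO and highest in Ikzf3 KO libraries. Chac1, which degrades glutathione, met the definition of opposing and had an interaction of -2.50 ± 0.52 (adjusted p 0.0104). These 4 of 17 tested were below the sum, none was above, and 13 did not pass (median -0.68). The called share was 23.5%, beside 6.55% of all genes.

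Sh2d1b2, an adaptor of activating receptors, was nearly silent in DKO libraries at 0, 0.0193 and 0.0762 RPKM, against 1.27, 2.08, 1.05 and 0.402 RPKM in Ikzf1 KO libraries, 15.1, 11.2, 17.7 and 2.66 RPKM in Ikzf3 KO libraries and 1.99, 2.67, 2.07 and 0.578 RPKM in Cre only libraries. Its interaction was -3.81 ± 0.72 (adjusted p 0.00642). Of 17 activating receptors and adaptors tested, 5 were above the sum (Cd226, Cd247, Cd96, Cd2 and Cd48), 2 below (Sh2d1b1 and Sh2d1b2) and 10 did not pass, with a median of 0.60. The called share was 41.2%, beside 6.55% of all genes. Cd96 kept its call in 7 of the 15 fits with 1 library left out. Cd247 shares 60.3% of its exon bases with neighbouring genes, chiefly Pou2f1 on the other strand, so its value is uncertain. Serpinb1b, an inhibitor of granule proteases, had 0, 0.662 and 1.21 RPKM in DKO libraries, 1.85, 2.19, 2.16 and 1.62 RPKM in Ikzf1 KO libraries, 6.82, 8.04, 15 and 8.43 RPKM in Ikzf3 KO libraries and 2.62, 2.65, 4.55 and 2.35 RPKM in Cre only libraries. DKO was lowest and Ikzf3 KO highest without overlap (interaction -2.77 ± 0.48, adjusted p 0.00418). Of 9 serpins tested, 2 were below the sum (Serpinb1b and Serpinb6a), 2 above it (Serpina3f and Serpina3g) and 5 did not pass. That is 44.4% called, beside 6.55% of all genes. Serpina3f and Serpina3g kept their calls in 7 and 3 of the 15 fits with 1 library left out. Prdm1, the transcriptional repressor BLIMP-1, had 7.42, 5.35 and 8.67 RPKM in DKO libraries, 19.2, 19.5, 18.4 and 11.6 RPKM in Ikzf1 KO libraries, 23.1, 21.6, 26.6 and 16.7 RPKM in Ikzf3 KO libraries and 21.2, 22.8, 10.9 and 8.86 RPKM in Cre only libraries. The Prdm1 interaction of -1.75 ± 0.42 (adjusted p 0.0229) was lost without any of S6, S12, S13 or S14, and without S18 and S19 together. Of 17 NK lineage transcription factors tested, Prdm1 was below the sum, Bcl11b above it and 15 did not pass. The called share was 11.8%, beside 6.55% of all genes.

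The 38 buffering genes with a single change in Ikzf1 KO alone held 24 above and 14 below the sum. Cd27, a TNF receptor family member that marks immature NK cells, had 7.3, 7.31 and 10.3 RPKM in DKO libraries, 1.27, 1.42, 1.38 and 0.611 RPKM in Ikzf1 KO libraries, 5.78, 5.09, 5.97 and 6.34 RPKM in Ikzf3 KO libraries and 7.99, 7.36, 5.2 and 4.83 RPKM in Cre only libraries. Ikzf1 KO libraries stood alone at the bottom. Cd27 fell there by 2.04 (log2, adjusted p 4.16e-05), the change in DKO against Cre only was 0.37 (adjusted p 0.254), and the interaction was 2.51 ± 0.30 (adjusted p 0.000522). Ubash3a, a phosphatase family protein that dampens T cell receptor signals, had 2.52, 5.54 and 6.19 RPKM in DKO libraries, 0.426, 0.446, 0.523 and 0.828 RPKM in Ikzf1 KO libraries, 1.49, 1.54, 1.38 and 1.36 RPKM in Ikzf3 KO libraries and 1.08, 1.37, 2.1 and 2.7 RPKM in Cre only libraries. It rose by 1.16 in DKO cells and fell by 1.09 in Ikzf1 KO cells against Cre only (log2, adjusted p 0.00964 and 0.0199), with an interaction of 2.44 ± 0.38 (adjusted p 0.00184).

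Enhanced genes were few. C1qtnf1, a secreted protein related to complement C1q, was at most 0.0727 RPKM in Ikzf3 KO and Cre only libraries. It had 9.67, 10.2 and 11.1 RPKM in DKO libraries, 4.14, 4.22, 4.94 and 4.81 RPKM in Ikzf1 KO libraries, 0.0538, 0.0727, 0 and 0 RPKM in Ikzf3 KO libraries and 0.0221, 0.0434, 0.0237 and 0.0195 RPKM in Cre only libraries. Ikzf1 loss raised it by 3.25 on the log2 scale (adjusted p 6.21e-10), Ikzf3 loss alone by 0.01 (adjusted p 0.962), and both by 4.36 (adjusted p 1.43e-11). The interaction was 1.10 ± 0.17 (adjusted p 0.00205). An antisense gene overlaps 20.5% of its exon bases. Maged1, a cofactor of the melanoma antigen family, had 9.94, 9.78 and 10.6 RPKM in DKO libraries, 2.77, 2.31, 2.54 and 3.59 RPKM in Ikzf1 KO libraries, 0.193, 0, 0.347 and 0.341 RPKM in Ikzf3 KO libraries and 0.111, 0.141, 0.0683 and 0.0562 RPKM in Cre only libraries, the same order with no overlap between DKO and Ikzf1 KO. Its interaction was 1.45 ± 0.26 (adjusted p 0.00471) and was lost when 0.1 was added in place of 0.5. The 3 enhanced genes below the sum, Dus2, Lat2 and Tmem135, each lost the call with several single libraries left out.

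**Figure D5:**
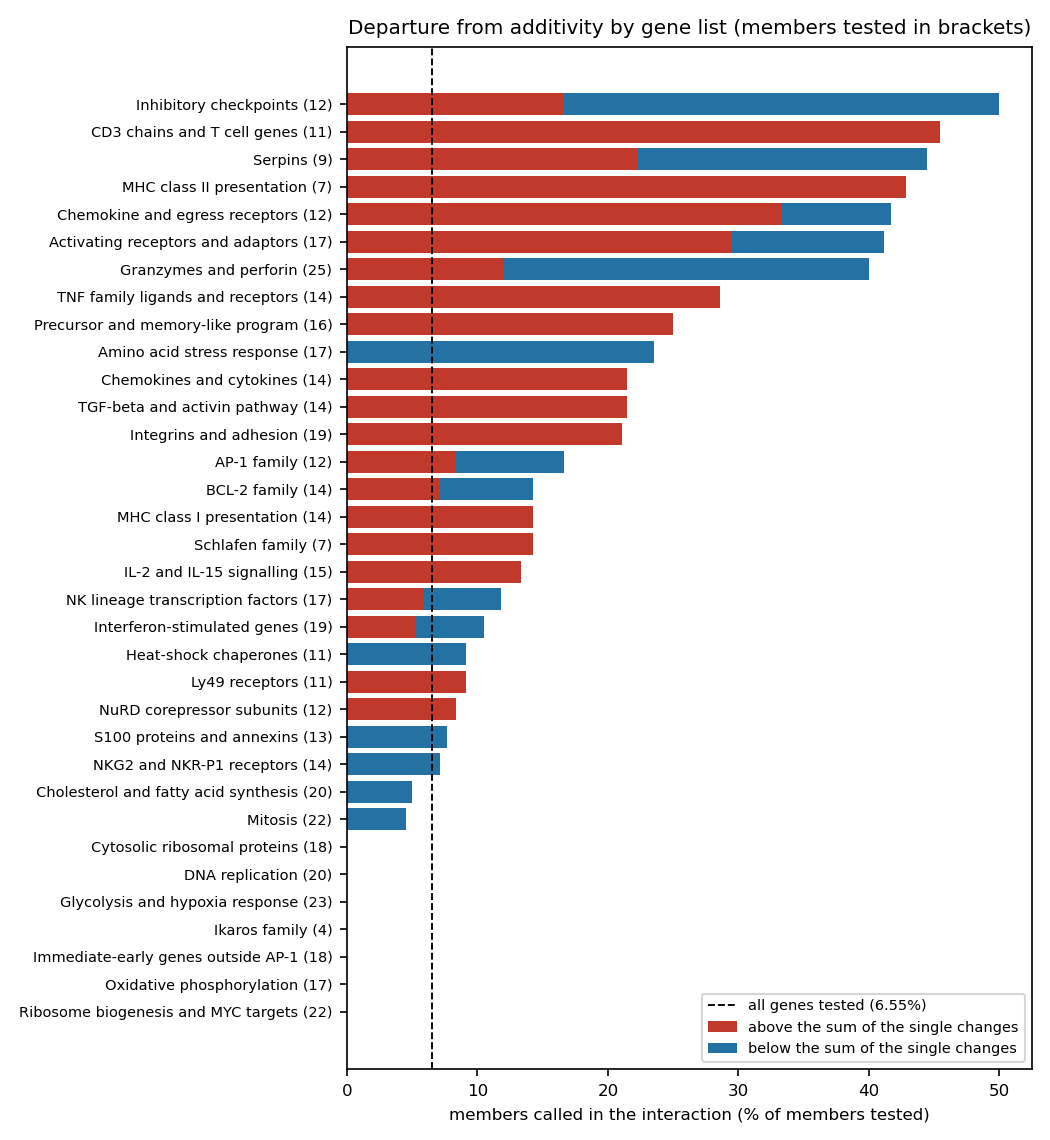
Share of the tested members of 34 gene lists called in the interaction (horizontal axis, percent), red for members above the sum of the single changes and blue for members below it, with the number tested in brackets. The dashed line is the 6.55% of all genes tested, and 7 lists have no called member.

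Beside the 6.55% of all genes called, by limma none was called of 20 DNA replication genes, 22 ribosome biogenesis genes, 23 glycolysis and hypoxia genes, 17 genes of oxidative phosphorylation encoded in the nucleus, or 18 cytosolic ribosomal proteins, while 0, 0, 10, 2 and 1 of them had an unadjusted p under 0.05. None of 10 NK cell markers was called either, and 5 had an unadjusted p under 0.05. Without S1 and S2, all 18 of the cytosolic ribosomal proteins were called below the sum (median -0.999) and 9 of the 20 DNA replication genes above it (median 0.52). The median interaction of glycolysis genes was -1.40. Without S1 and S2 it was -1.49 with 7 called below the sum, and without S16 and S17 it was -1.60 with 6. It was -0.627 without S18 and S19, -0.249 without S5, S15, S18 and S19 and -0.198 with array weights, with none called. Of 22 mitosis genes Aurka alone was called, below the sum (-1.16 ± 0.30, adjusted p 0.0325), with 11 at an unadjusted p under 0.05 and a median of -0.84. The Aurka call was lost without any of S5 to S7, S12 to S14 or S16, and without S16 and S17 together. Without Cre only libraries S18 and S19, 17 mitosis genes were called below the sum, and without S16 and S17 none was. Ribosome biogenesis genes had a median of 0.83. Without S1 and S2 18 of them were called above the sum (median 1.92), and without S3 and S4 1 was called below it (median -0.215).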

How the data were processed

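Polyadenylated RNA of sorted, cultured mouse splenic NK cells was sequenced in 75 bp single reads from a stranded kit, per the labels' protocols. The RPKM values per gene were deposited by the authors. STAR, featureCounts, limma 3.34.9 and the mm10 build are named in the submitters' processing notes, and the strand setting of the counting is not given in the sources used here. RPKM values are not counts, so limma 3.58.1 (R 4.3.3) was fitted on log2(RPKM + 0.5) with 1 mean per group over 15 libraries, trended and robust moderation and 11 residual degrees of freedom. Genes with at least 1 RPKM in at least 3 libraries were kept, p-values were two-sided and adjusted by Benjamini-Hochberg over 10032 genes, and errors after ± are standard errors of the fit. Whole reads recovered with GENCODE M21 exon lengths gave the depth (96.208% of genes whole in every library, within 0.02 reads). Every column of values was used.

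The comparison, its members and the gene lists were chosen with earlier results of these data known. Named genes were, per class and direction, the 5 with the largest interaction among genes of at least 5 RPKM in the highest group, and per list up to 4 called members with the smallest adjusted p. Members of the AP-1 list were named by the 3 smallest p. Antigen receptor segments and predicted genes were left out of the naming. Some genes of these rules are not reported here. Cd3d, Cd3g, Gzma, Gzmb and Prf1 were named after their values were seen. Alternatives were other pseudocounts, filters, scalings, weights and moderation, other thresholds for the classes, and libraries left out singly, in pairs and in sets.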

Additional observations from a re-analysis of the deposited data

Results flagged for a closer look

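The effect of Ikzf1 loss differed between cells without and with Ikzf3 in 657 genes by the test of the interaction itself, which is the result described above.

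In 273 pairs of a gene and a genotype with 4 libraries, 21 had a highest or lowest library far from the other 3 by Dixon's test, which by chance marks about 1 group in 20. Ikzf1 KO library S15 accounted for 9 of them. There it had 13.9 RPKM of Lat2, 15.1 RPKM of Smad3, 14.4 RPKM of Cd247, 13.7 RPKM of Rsu1, 10.8 RPKM of Nlrc5 and 32.4 RPKM of Hist1h1c, all highest, and 20.5 RPKM of Vsir, 2.19 RPKM of Filip1 and 11.6 RPKM of Prdm1, all lowest. Among Ikzf3 KO libraries, S4 had 6.72 RPKM of Klra6 and 2.20 RPKM of Tox as the highest, and 14.6 RPKM of Gzmf and 1.42 RPKM of Gzmn as the lowest. Library S3 was highest for Ctsg at 78.8 RPKM and for Vsir at 146 RPKM. Among Cre only libraries, S16 was highest for Igfbp7 at 0.172 RPKM and S17 lowest for Jaml at 15.02 RPKM. Library S18 was highest for Bag3 at 10.3 RPKM and for Serpinb1b at 4.55 RPKM, and S19 was lowest for Dus2 at 9.54 RPKM and for Mt2 at 20.3 RPKM.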

How the results depend on the processing

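Counts with all 15 libraries were 657 called genes in all, 132 of them redundancy, 21 opposing, 491 buffering and 13 enhanced, and no gene of the 657 changed direction under any alternative. Requiring 1 RPKM in all libraries left 8124 genes and gave 255, made up of 33, 6, 214 and 2. Array weights gave 2406, made up of 277, 53, 1909 and 167. No filter gave 32 enhanced genes. Without S3 and S4 there were 1036 called genes, with 33 opposing, 790 buffering and 36 enhanced. Without S1 and S2 there were 4097, made up of 204, 158, 3667 and 68. Without S16 and S17 there were 87 redundancy and 4 enhanced genes. Without S5, S15, S18, S19, S3 and S4, a set chosen after seeing the data, there were 2793, made up of 312, 64, 2224 and 193. A single change of 0.25 in place of 0.5 gave 55 opposing and 8 enhanced genes, and one of 1 gave 4 opposing genes. Single libraries left out gave 379 to 848 called genes, 94 to 160 redundancy, 15 to 27 opposing, 256 to 672 buffering and 7 to 18 enhanced. The cause was not tested. Of the called genes, 55.4% were above the sum, against 48.7% without S18 and S19 and 61.2% without S13.

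Leaving aside the sets chosen after seeing the data, 265 of the 657 genes were called under every alternative in which they were tested, 60 of them redundancy, 13 opposing, 190 buffering and 2 enhanced. Ikzf1 and Ikzf3, which were not called, changed sign: Ikzf1 to -0.0199 without S5, S15, S18 and S19 and to -0.0456 without those and S3 and S4, and Ikzf3 to -0.0656 with array weights, -0.0964 with S3 and S4 left out, -0.0456 with S16 and S17 left out and -0.0511 without the 6 libraries (limma, adjusted p 0.69 to 0.964). With single libraries left out, Ikzf3 ran from -0.00972 without S3 to 0.123 without S2, with -0.00956 without S5. No paired analysis was possible because the column names carry no replicate numbers. Depth limits genes of few reads. Of the 657 called genes, 226 averaged under 5 RPKM in every group, and the matching share of all tested genes was not computed.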

Other observations

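Genes of the mitochondrial genome stood out among chromosomes, and were singled out after their values were seen. Of 11 tested, 6 were called above the sum, 54.5%, while the share on the nuclear chromosomes with more than 1 tested gene lay between 4.51% and 8.96%. The 6 were mt-Nd1, mt-Nd2, mt-Nd4, mt-Nd5, mt-Nd6 and mt-Cytb, which encode subunits of complexes I and III. Averages of mt-Nd5 were 1119 ± 219 RPKM in DKO cells, 436 ± 127 RPKM in Ikzf1 KO cells, 349.6 ± 33.6 RPKM in Ikzf3 KO cells and 661 ± 129 RPKM in Cre only cells (SD, n = 3 for DKO and 4 for the others), with an interaction of 2.28 ± 0.29 (adjusted p 0.00063, limma). The ribosomal RNAs mt-Rnr1 and mt-Rnr2 and mt-Co1 did not pass, with interactions of -0.36 ± 0.48, 0.15 ± 0.33 and 0.87 ± 0.43 (adjusted p 0.686, 0.822 and 0.27). Summed over the table's mitochondrial genes, DKO libraries had 17174, 15664 and 14022 RPKM, and the other 12 libraries had 6088 to 11756 RPKM without overlap.

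Both deleted genes lie on chromosome 11, where 61 of 916 tested genes were called (6.66%). Within 10 Mb of Ikzf3 the share was 9.41% (19 of 202), Chad and Icam2 among them. Within 10 Mb of Ikzf1 it was 7.29% (7 of 96).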
